A study of Mus musculus with 2 samples.

Results

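Immediate early genes are a set of genes that cells transcribe within minutes of a stimulus without first making new protein. The 10 members described here were Fos, Fosb, Jun, Junb, Jund, Egr1, Atf3, Ier2, Klf4 and Zfp36, chosen by symbol from the 31053 genes of the count matrices, and each symbol matched 1 gene. They were measured by single-cell RNA sequencing in dermal cells of 8-week-old C57BL/6 mice of the genotype PdgfraDreER-tdTomato, with a library of untreated mice (UT) and a library of mice given imiquimod (IMQ) for 7 days, 1 each. Imiquimod is an agonist of Toll-like receptor 7 whose cream brings on a psoriasis-like inflammation in mice. In these mice of either group, tamoxifen lets the recombinase DreER, driven from Pdgfra, switch on the red reporter tdTomato, so the label marks cells that expressed Pdgfra, a receptor gene of fibroblasts, at the time of induction and their descendants. The epidermis was taken off with Dispase II overnight in the cold, the dermis was digested with enzymes, and live cells that carried tdTomato but not CD45, an antigen of leukocytes, were sorted. How many animals went into each library was not stated. With 1 library per group there was no replicate, so no test was run, and every interval below is an exact 95% interval that covers counting error alone. Barcodes of 1 library are not replicates of a condition.

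Products of these genes meet at a few kinds of DNA site. Fos, Fosb, Jun, Junb, Jund and Atf3 encode basic leucine zipper proteins that pair with each other to form AP-1, a factor that binds the sequence TGANTCA and its relatives, while Egr1 and Klf4 encode zinc finger factors. Growth factors, cytokines and stress reach the genes through the ERK, JNK and p38 kinases and through factors already bound at the promoters, such as serum response factor (SRF) at the CArG box and CREB at the cAMP response element (CRE). The proteins and transcripts are short-lived, and Zfp36 encodes tristetraprolin, an RNA-binding protein rather than a transcription factor, which speeds the decay of AU-rich messages. In skin these genes respond to wounding and irritation, and they are also known to rise in cells during tissue digestion, so their level in a dissociated sample can differ from that in the tissue.

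Promoters of 8 of the 10 members, all but Egr1 and Ier2, were read from the RefSeq table of GRCm38.p6, which holds 250 bases before and 50 bases after the start of each gene. Searched on both strands for the CArG box, the CRE (TGACGTCA), the AP-1 site (TGANTCA) and the TATA box (TATAAA), 3 of the 8 held a match. The windows of Fos (chr12:85473640-85473939, plus strand), Junb (chr8:84978699-84978998, minus strand) and Zfp36 (chr7:28379179-28379478, minus strand) are shown because they hold those matches, with the matched bases in capitals, a TATA box in Fos and Junb and a CArG box in Zfp36.
Fos: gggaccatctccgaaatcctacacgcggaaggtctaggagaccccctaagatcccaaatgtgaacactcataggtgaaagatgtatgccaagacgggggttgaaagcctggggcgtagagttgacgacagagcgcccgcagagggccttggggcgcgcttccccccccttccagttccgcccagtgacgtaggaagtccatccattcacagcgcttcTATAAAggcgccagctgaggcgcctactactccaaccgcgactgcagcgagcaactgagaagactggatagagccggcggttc
Junb: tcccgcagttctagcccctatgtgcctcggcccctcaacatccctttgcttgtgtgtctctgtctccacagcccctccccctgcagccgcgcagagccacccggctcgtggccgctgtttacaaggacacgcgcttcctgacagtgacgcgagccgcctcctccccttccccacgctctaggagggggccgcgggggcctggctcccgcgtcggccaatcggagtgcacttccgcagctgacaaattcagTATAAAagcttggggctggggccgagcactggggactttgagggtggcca
Zfp36: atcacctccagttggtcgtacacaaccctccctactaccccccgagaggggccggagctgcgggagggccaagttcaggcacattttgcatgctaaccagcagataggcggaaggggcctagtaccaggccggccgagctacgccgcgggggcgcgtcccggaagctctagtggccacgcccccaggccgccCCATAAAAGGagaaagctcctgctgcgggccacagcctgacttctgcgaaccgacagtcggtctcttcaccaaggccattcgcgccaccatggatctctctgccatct
The Fos TATA box began 33 bases before the gene start. That of Junb began 30 bases before the start in the GENCODE annotation, which lies downstream of the RefSeq start. The CArG box of Zfp36 began 967 bases after the GENCODE start, inside the gene as annotated there. Windows without a match can also lie away from the GENCODE start. That of Jund (chr8:70697489-70697788) ends before the GENCODE start at 70698949. That of Atf3 (chr1:191183284-191183583, minus strand) lies inside the GENCODE gene, which spans 191170296 to 191218039. Of all 32851 promoters in the table, 13.6% held the TATA box, 1.63% the CArG box, 1.79% the CRE and 7.81% the AP-1 site. A match is a description of the letters, and no match says only that these letters are not in this window.

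The barcodes fell into classes by Malat1, a nuclear-retained long noncoding RNA that is abundant in intact cells. Among barcodes with 200 or more detected genes, those with 10 or more unique molecular identifiers (UMIs) of Malat1 are called Malat1-rich, 39 in UT and 11 in IMQ, and those with fewer are called Malat1-poor, 1312 in UT and 1415 in IMQ. The limit cut through a gap: the lowest Malat1-rich barcode had 15 Malat1 UMIs in UT and 10 in IMQ, the highest Malat1-poor barcode had 6 in either library, and 1225 and 1387 Malat1-poor barcodes had 0. Malat1-rich barcodes were deeper, with a median of 3648 UMIs in UT and 5689 in IMQ against 698 in the Malat1-poor barcodes of each library. In Malat1-poor barcodes the median mitochondrial share was 3.21% in UT and 6.24% in IMQ, and Gm42418, a noncoding transcript that overlaps ribosomal RNA, took 1.48% and 15.2% of UMIs. Fewer than 200 genes were seen in another 64 UT and 3621 IMQ barcodes, 1 barcode sequence occurred in both libraries, and the matrices held 1415 barcodes with 1524079 UMIs and 5047 barcodes with 2358303 UMIs in all.

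The labelled lineage was plainer in the Malat1-poor than in the Malat1-rich class. The 7 fibroblast markers, among them Col1a1, Dcn and Pdgfra, summed to 15125 CPM, which is UMIs scaled to a common total, in the Malat1-rich barcodes of UT and 8114 CPM in those of IMQ, against 94356 and 124885 CPM in the Malat1-poor barcodes, with no marker at 0 in any of these. The 7 keratinocyte markers, among them Krt5 and Krt14 of the basal epidermis, summed to 17279 CPM in Malat1-rich UT barcodes, where none was at 0, and to 18.8 CPM in those of IMQ, where 6 of 7 were at 0. In the Malat1-poor class they summed to 66.7 CPM in UT and 17.3 CPM in IMQ, with 0 and 4 of 7 at 0. The leukocyte lists were low in the Malat1-rich class, with myeloid markers at 35.0 CPM in UT and 9.39 CPM in IMQ and T cell markers at 163 CPM and 0.

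Most UMIs of the immediate early genes were counted in a few Malat1-rich barcodes. In UT, Malat1-rich barcodes were 2.89% of the barcodes with 200 or more genes and held 22.9% of their UMIs, but 83.8% (exact binomial interval 83.1% to 84.4%) of the UMIs of the 10 genes, 10046 of 11994. In IMQ they were 0.771% of barcodes and held 8.85% of UMIs and 63.8% (62.0% to 65.6%) of the UMIs of the 10 genes, 1746 of 2735. Their summed level in the Malat1-rich class was 29327 CPM in UT and 16397 CPM in IMQ. In the Malat1-poor class it was 1688 CPM (exact Poisson interval 1613 to 1764) in UT and 902 CPM (847 to 960) in IMQ, and in barcodes with fewer than 200 genes it was 736 CPM (450 to 1137) and 524 CPM (484 to 568). The Malat1-poor level thus lay above that of the smallest barcodes in each library and below that of the Malat1-rich barcodes, which without the top barcode of each library was 13693 CPM in UT and 15971 CPM in IMQ. Barcodes were captured at unequal depth, and whether a Malat1-poor barcode holds a whole cell, part of one or free RNA was not tested.

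**Figure D1:**
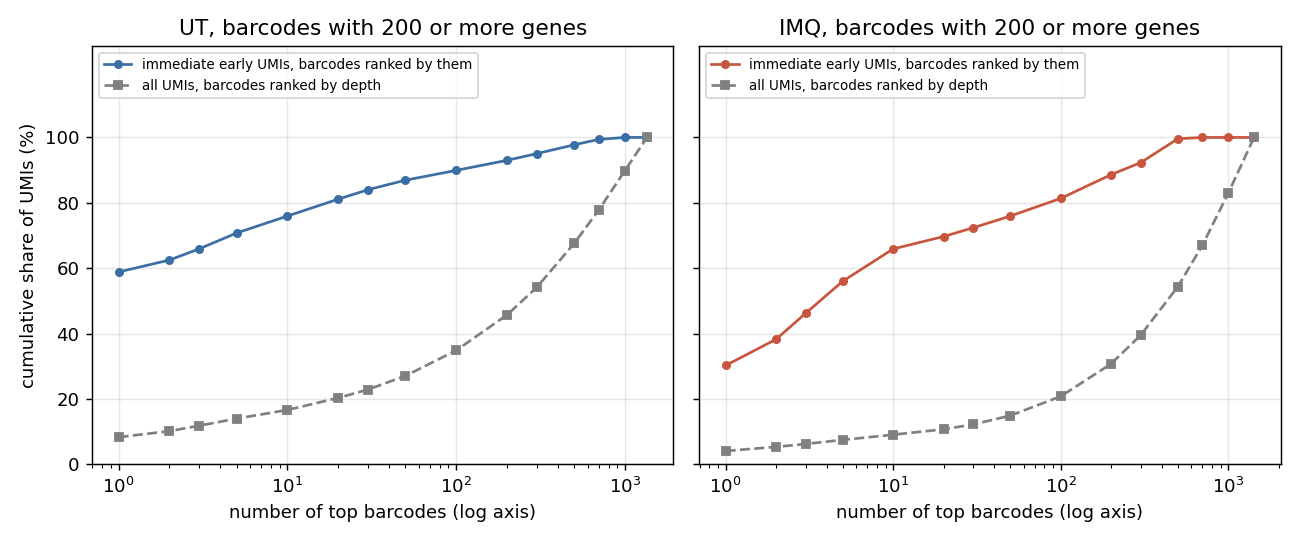
Cumulative share of UMIs (%, vertical axis) over the top barcodes (horizontal axis, log scale) with 200 or more genes, for UT on the left and IMQ on the right. Coloured lines rank barcodes by their UMIs of the 10 immediate early genes and grey dashed lines rank them by depth for all UMIs; 1 UT barcode held 58.8% of the immediate early UMIs, and 10 IMQ barcodes held 65.9%.

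A ranking of barcodes by their immediate early UMIs showed how few carried the sum. In UT, 50% of these UMIs came from 1 barcode, and in IMQ from 4. For comparison, the deepest barcodes needed for 50% of all UMIs numbered 250 in UT and 438 in IMQ. All of the 10 top UT barcodes in this ranking and 8 of the 10 top IMQ barcodes were Malat1-rich.

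The UT barcode with the most immediate early UMIs stood apart from every other. It had 124192 UMIs from 7997 genes, 34 times the median depth of its class, and 2985 Malat1 UMIs. It carried 7056 UMIs of the 10 genes, which is 70.2% of those in Malat1-rich UT barcodes although it had 36.3% of their UMIs. Its counts were 1694 for Fos, 1343 for Atf3, 1100 for Jun, 946 for Junb, 672 for Jund, 382 for Egr1, 373 for Fosb, 189 for Ier2, 179 for Zfp36 and 178 for Klf4. The barcode also held 3692 UMIs of the keratinocyte list and 13 of the fibroblast list, so its markers were those of epidermis and not of the sorted lineage. The study's own limit of 5000 genes would leave it out. Neither it nor any other Malat1-rich barcode was in the fixed share of barcodes with the highest scores of Scrublet, a doublet caller. That is not a call of a single cell, and whether it holds more than 1 cell was not tested. The top IMQ barcode had 48937 UMIs and 827 of the 10 genes, 47.4% of those in Malat1-rich IMQ barcodes, led by Junb with 215 and Jund with 203.

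Seen barcode by barcode, the libraries overlapped widely. The summed level of the 10 genes per Malat1-rich barcode ran from 0 to 73211 CPM in UT, with a median of 10193 CPM, and from 7205 to 30107 CPM in IMQ, with a median of 14493 CPM. The IMQ range lay inside the UT range, and 20 of 39 UT and 8 of 11 IMQ barcodes were above 10000 CPM. A median of 7 of the 10 genes was detected per barcode in either library. All 10 were seen in 6 UT and 4 IMQ barcodes, and 1 UT barcode had none. The barcode at 73211 CPM, with 5491 UMIs in all, was led by fibroblast markers and owed 207 of its 402 immediate early UMIs to Fos.

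**Figure D2:**
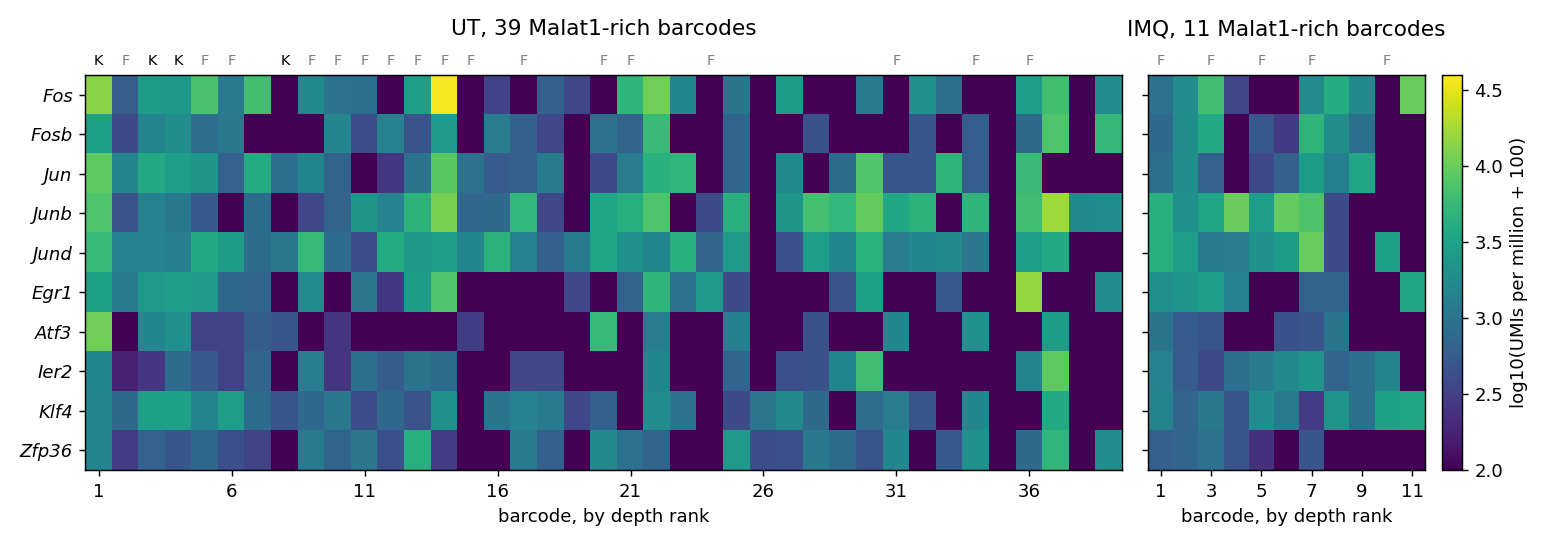
Level of each of the 10 genes (rows) in each Malat1-rich barcode (columns, in order of depth), 39 in UT and 11 in IMQ, as log10 of CPM plus 100. K marks barcodes led by keratinocyte markers and F those led by fibroblast markers; the first UT column, led by keratinocyte markers, is the barcode with 7056 immediate early UMIs, and barcodes differ in which genes they carry.

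Fos and Fosb encode the Fos proteins, which cannot pair with themselves and bind DNA as partners of Jun proteins. Fos (ENSMUSG00000021250, chromosome 12, 85473890 to 85477273; all positions are those of GENCODE M21 on GRCm38) had 2291 UMIs, 6688 CPM (6417 to 6968), in Malat1-rich UT barcodes and 169 UMIs, 1587 CPM (1357 to 1845), in those of IMQ. The first of these is mostly 1 barcode: without the top barcode of each library Fos stood at 2734 CPM in UT and 2207 CPM in IMQ, and it was detected in 26 of 39 UT and 8 of 11 IMQ barcodes. Fosb (ENSMUSG00000003545, chromosome 7, 19302696 to 19310051), whose protein is close to that of Fos, had 556 UMIs, 1623 CPM (1491 to 1764), in UT and 139, 1305 CPM (1097 to 1541), in IMQ. Without the top barcodes its order turned, with 838 CPM in UT and 1842 CPM in IMQ.

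Jun, Junb and Jund encode the Jun proteins, of which Jund is made steadily and the other two are induced. Jun (ENSMUSG00000052684, chromosome 4, 95049034 to 95052222) had 1525 UMIs, 4452 CPM (4231 to 4681), in Malat1-rich UT barcodes and 101, 949 CPM (773 to 1153), in IMQ, and it remained lower in IMQ without the top barcodes, at 1946 and 1060 CPM. Junb (ENSMUSG00000052837, chromosome 8, 84974484 to 84978718) had 1355 UMIs, 3956 CPM (3748 to 4172), in UT and 470, 4414 CPM (4024 to 4832), in IMQ. It was the member with the most UMIs in Malat1-rich IMQ barcodes, 26.9% of their immediate early UMIs, and without the top barcodes it stood at 1873 CPM in UT and 4431 CPM in IMQ. Jund (ENSMUSG00000071076, chromosome 8, 70698949 to 70700616) was the most widely detected member in UT, in 35 of 39 barcodes, at 3129 CPM (2945 to 3323) against 3268 CPM (2934 to 3630) in IMQ, where 9 of 11 barcodes had it. On the other strand Jun is overlapped by Junos, Junb by Prdx2 and Jund by Gm11175, and as the sources used here do not say whether strand was used in counting, the gene behind their UMIs is uncertain.

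Atf3 encodes a stress-induced AP-1 partner that often represses its targets. In Malat1-rich UT barcodes Atf3 (ENSMUSG00000026628, chromosome 1, 191170296 to 191218039) had 1476 UMIs, 4309 CPM (4092 to 4534), of which 91.0% came from the top barcode, and it was seen in 16 of 39. In IMQ it had 62 UMIs, 582 CPM (446 to 746), in 6 of 11 barcodes. Leaving out only the top UT barcode brought UT to 609 CPM (510 to 722), and the intervals of the libraries then overlapped. Of the 10 genes, Atf3 depended most on that barcode and Klf4 least, with 38.4% of its UMIs there.

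Egr1 and Klf4 encode zinc finger factors, the first induced by growth factors through SRF and the second needed for the barrier of the epidermis. Egr1 (ENSMUSG00000038418) had 707 UMIs, 2064 CPM (1915 to 2222), in Malat1-rich UT barcodes and 173, 1625 CPM (1392 to 1886), in IMQ, and its highest barcode in UT, at 15110 CPM, carried fibroblast markers. Klf4 (ENSMUSG00000003032, chromosome 4, 55527143 to 55532466) had 463 UMIs, 1352 CPM (1231 to 1481), in UT and 121, 1136 CPM (943 to 1358), in IMQ. It was detected in 30 of 39 UT and all 11 IMQ barcodes. The intervals of Egr1 did not overlap between the libraries and those of Klf4 did. Without the UT barcode with the most Egr1 UMIs, 382, Egr1 stood at 1488 CPM in UT, and its log2 ratio of IMQ over UT was 0.13 (-0.15 to 0.40), which covers 0.

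Ier2 and Zfp36 were the members with the fewest UMIs in Malat1-rich UT barcodes. Ier2 (ENSMUSG00000053560, chromosome 8, 84661331 to 84662852), a nuclear protein of the immediate early response without a known DNA-binding domain of its own, had 291 UMIs, 850 CPM (755 to 953), in UT and 113, 1061 CPM (875 to 1276), in IMQ, where 10 of 11 barcodes had it. Zfp36 (ENSMUSG00000044786, chromosome 7, 28376784 to 28380253, overlapped by Gm44710 on the other strand) had 310 UMIs, 905 CPM (807 to 1012), in UT and 50, 470 CPM (349 to 619), in IMQ. Of the 310, 179 came from the top UT barcode. Without the top barcode of each library Zfp36 stood at 600 CPM in UT and 417 CPM in IMQ, and the intervals overlapped (502 to 712 and 267 to 621). The median Malat1-rich barcode had 525 CPM of Zfp36 in UT and 137 CPM in IMQ, and 30 of 39 against 6 of 11 had a UMI.

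**Figure D3:**
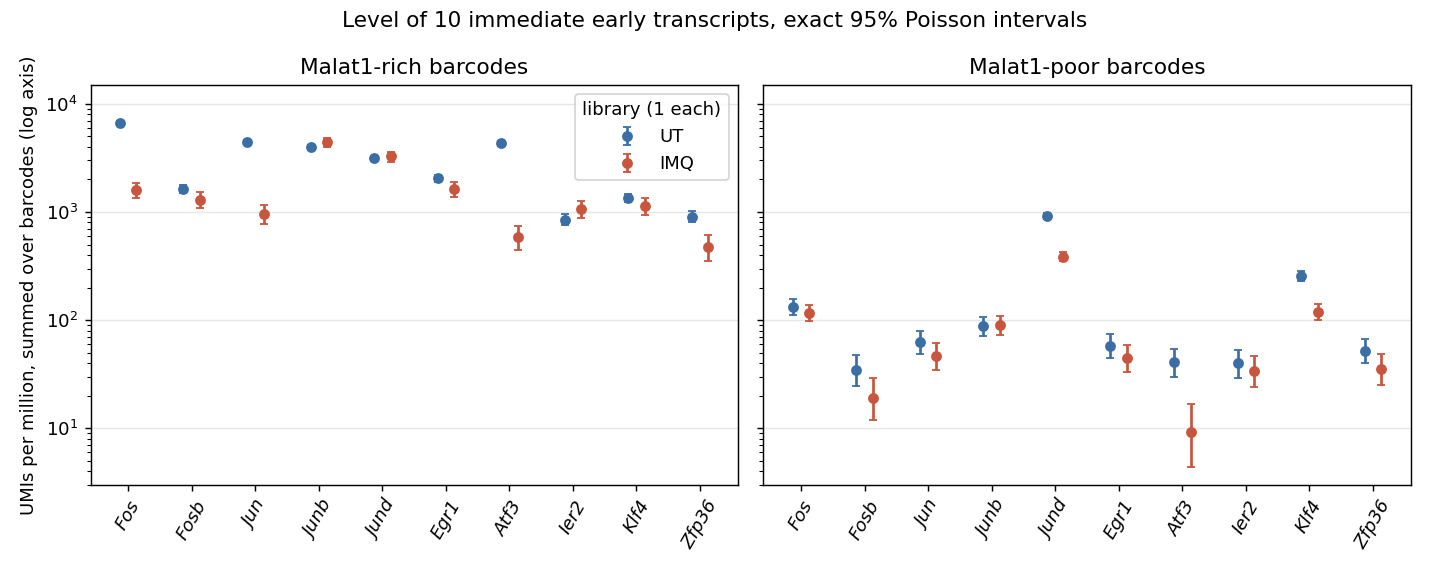
Level of each of the 10 genes in CPM (log axis), summed over the Malat1-rich barcodes (left, 39 UT and 11 IMQ) and the Malat1-poor barcodes (right, 1312 UT and 1415 IMQ), with exact 95% Poisson intervals and 1 library per group. All 10 genes were higher in the Malat1-rich class, and in the Malat1-poor class Jund (923 CPM in UT, 387 CPM in IMQ) stood above the others in each library and Klf4 came next in UT, while in IMQ Klf4 (119 CPM) and Fos (117 CPM) were close.

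The ratio between the libraries depended on the top UT barcode. Over all Malat1-rich barcodes the log2 ratio of IMQ over UT for the summed genes was -0.84 (exact conditional binomial interval -0.91 to -0.77), and without the top barcode of each library it was 0.22 (0.11 to 0.33). Leaving out only the UT barcode gave 0.26 (0.17 to 0.35), so the IMQ barcode had little part in the turn. With each barcode weighted equally the log2 ratio was -0.066. The sign over the sum is therefore that of 1 barcode with epidermal markers, and the other 38 UT and 11 IMQ barcodes gave the other sign.

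Gene by gene, Fos (log2 ratio -2.08, -2.31 to -1.85), Jun (-2.23, -2.54 to -1.94) and Atf3 (-2.89, -3.28 to -2.52) were lower in IMQ by more than a fold of 2, and no member was higher by as much. Among all 5906 genes with at least 10 UMIs over both libraries in this class, 21.9% were lower and 16.3% were higher by that fold, and the median gene had a log2 ratio of -0.12. The other members ran from Zfp36 at -0.95 (-1.41 to -0.51) to Ier2 at 0.32 (-0.01 to 0.64). Without the top barcodes none was lower by a fold of 2, and Junb (1.24, 1.01 to 1.47) and Fosb (1.14, 0.78 to 1.49) were higher. There the background was 25.3% lower and 12.7% higher among 4413 genes, with the median gene at -0.21, and relative to that median Ier2 (1.05) was also past the fold. Fos moved to -0.31 (-0.60 to -0.03), Jun to -0.88 (-1.29 to -0.49) and Atf3 to -0.96 (-1.76 to -0.25). Zfp36 moved to -0.52 (-1.22 to 0.11), which covers 0. Of the remaining 597 UT UMIs of Fos, 207 came from 1 barcode, and of the remaining 127 in IMQ, 68 came from 1. Without that UT barcode too Fos stood at 1832 CPM in UT against 2207 CPM in IMQ, with a log2 ratio of 0.27 (-0.03 to 0.56). Without those barcodes of both libraries Fos was lower in IMQ, at 1832 and 1262 CPM (-0.54, -0.96 to -0.14). For Atf3, leaving out another 44 of 133 UMIs in UT gave -0.54 (-1.36 to 0.20).

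**Figure D4:**
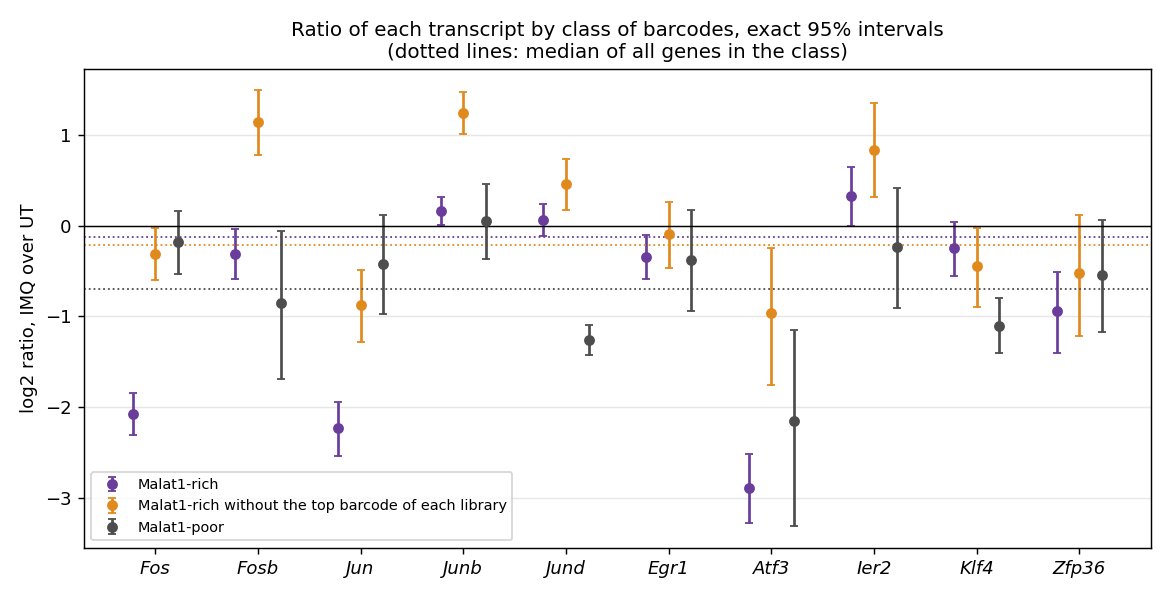
Log2 ratio of IMQ over UT for each gene (vertical axis) in all Malat1-rich barcodes, in Malat1-rich barcodes without the top barcode of each library, and in Malat1-poor barcodes, with exact 95% intervals that cover counting error. Dotted lines give the median of all genes in each class (-0.12, -0.21 and -0.70). Fos, Jun and Atf3 rise toward 0 and Fosb turns positive once the top barcodes are left out.

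Barcodes led by the same cell type markers were then set side by side. In UT, 17 Malat1-rich barcodes were led by fibroblast markers, 4 by keratinocyte markers, 1 by endothelial and 1 by T cell markers, and 16 by none with enough UMIs. In IMQ, 5 were led by fibroblast markers, 1 by endothelial markers and 5 by none. The 4 keratinocyte-led UT barcodes held 78.9% of the immediate early UMIs of the class, at 43988 CPM. Of their 7925 such UMIs 7056 came from the top barcode. Per barcode they ran from 2535 to 56815 CPM, with a median of 17660 CPM. The 17 fibroblast-led barcodes had 13246 CPM (12571 to 13948) in UT and the 5 in IMQ had 17418 CPM (16473 to 18402), a log2 ratio of 0.39 (0.29 to 0.50). Among these fibroblast-led barcodes Ier2 (1.79, 1.22 to 2.38), Fosb (1.18, 0.72 to 1.64), Atf3 (1.13, 0.48 to 1.81) and Junb (1.13, 0.87 to 1.39) were higher in IMQ. Jund (0.84, 0.58 to 1.09) and Klf4 (0.46, 0.04 to 0.88) were higher by less than the fold. Fos, at 3261 CPM in UT and 1631 CPM in IMQ (log2 interval -1.31 to -0.70), and Jun (-0.74, -1.18 to -0.30) were lower. The intervals of Egr1 and Zfp36 covered 0. For Fos, Jun and Atf3 single barcodes held a large part of the count in each library. Without the UT barcode that held 207 of the 355 Fos UMIs, Fos stood at 1432 CPM in UT, with a log2 ratio of 0.19 (-0.17 to 0.55). Without also the IMQ barcode that held 68 of 119, Fos stood at 820 CPM in IMQ and was lower there (-0.80, -1.29 to -0.34). Jun without its highest barcode in both libraries was at -0.18 (-0.91 to 0.49). Without the IMQ barcode that held 44 of the 50 Atf3 UMIs, Atf3 stood at 250 CPM in IMQ against 312 CPM in UT (-0.32, -1.87 to 0.95). In UT 20 of the 34 Atf3 UMIs also came from 1 barcode, so that step alone does not settle its direction. The IMQ side rests on few barcodes, and the top IMQ barcode, with 17 fibroblast UMIs out of 48937, is 1 of the 5. Most IMQ UMIs of Ier2 (65 of 88), Klf4 (66 of 93), Junb (215 of 309) and Jund (203 of 283) came from that barcode. Without it Junb stood at 1.01 (0.65 to 1.37) and Jund at 0.62 (0.23 to 0.99). The intervals given do not cover such differences between barcodes. In the barcodes led by no list, Junb was again higher in IMQ (1.29, 0.93 to 1.66) and Jun lower (-1.66, -2.72 to -0.74). Of the 132 IMQ UMIs of Junb there, 78 came from 1 barcode and 53 from another. Junb was higher in IMQ in each of these groupings of Malat1-rich barcodes, with most of its IMQ UMIs from few barcodes. TMM scaling brought its log2 ratio over the whole class to -0.00094.

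Jund and Klf4 made up most of what Malat1-poor barcodes carried. Of the 1948 immediate early UMIs in Malat1-poor UT barcodes 54.7% were Jund and 15.2% Klf4, and of the 989 in IMQ 42.9% and 13.2%. In the Malat1-rich class the shares of Jund were 10.7% and 19.9%. The count of 3′ ends does not grow with transcript length, so these shares were not divided by length. Jund stood at 923 CPM (869 to 981) in UT, in 571 barcodes, and at 387 CPM (351 to 425) in IMQ, in 329. Klf4 stood at 256 CPM (228 to 287) in 199 barcodes and at 119 CPM (99.9 to 142) in 96. The remaining 8 members lay between 34.7 and 133 CPM in UT and between 9.12 and 117 CPM in IMQ, with Fos the highest of them in each library.

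In Malat1-poor barcodes the summed level was lower in IMQ, with a log2 ratio of -0.90 (-1.02 to -0.79), and 3 members were lower by more than a fold of 2: Jund (-1.26, -1.42 to -1.09), Klf4 (-1.10, -1.41 to -0.80) and Atf3 (-2.16, -3.31 to -1.15), the last on 47 and 10 UMIs. None was higher by that fold. Of all 8036 genes tested in this class 35.0% were lower and 4.06% higher by that fold, and the median gene was at -0.70, so 3 of 10 is near the background. Relative to the median gene Atf3 (-1.46) alone was past the fold, and 6 members were above it, led by Junb (0.75), Fos (0.52) and Ier2 (0.46). The mitochondrial and Gm42418 shares of these barcodes differed between the libraries as given above, and with UMIs of Gm42418, AY036118 and the mitochondrial and ribosomal protein genes kept out of the CPM the log2 ratio of the sum was -0.56. The myeloid markers summed to 1703 CPM in UT and 257 CPM in IMQ in these barcodes, and their part in the ratio was not tested. With a minimum of 500 genes per barcode the log2 ratio of the sum was 0.18 (-0.04 to 0.39) and that of Fos 1.43 (0.88 to 1.97), each opposite in sign to that with 200 genes.

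Malat1-poor barcodes were split by their mitochondrial share as well. With at most 5% mitochondrial UMIs, 1012 UT barcodes had 1558 CPM (1478 to 1640) of the 10 genes and 565 IMQ barcodes 1147 CPM (1048 to 1254), a log2 ratio of -0.44 (-0.59 to -0.29). With more than 5%, 300 UT barcodes had 2214 CPM (2025 to 2415) and 850 IMQ barcodes 748 CPM (684 to 816), a log2 ratio of -1.57 (-1.75 to -1.38). The order of the strata was opposite in the libraries, the higher mitochondrial share going with more immediate early UMIs in UT and with fewer in IMQ. Junb showed the split most plainly, with a log2 ratio of 1.50 (0.88 to 2.12) at or under 5% and -1.94 (-2.53 to -1.36) above it, while Jund was lower in IMQ in each, with intervals from -1.22 to -0.78 and from -1.50 to -0.91. The 2 Malat1-poor UT barcodes with the most immediate early UMIs, 84 and 64, had 6.69% and 6.84% mitochondrial UMIs and 2063 and 1653 UMIs in all. Without them the 298 other UT barcodes above 5% had 1592 CPM (1431 to 1766), close to the 1558 CPM at or under 5%, where no barcode was left out. The order of the UT strata thus stayed, but most of the gap between them came from these 2 barcodes.

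Within the Malat1-poor class a few Malat1 UMIs went with a different level. Barcodes with 0 Malat1 UMIs had 1706 CPM in UT and 828 CPM in IMQ. The 87 UT barcodes with 1 to 9 had 1410 CPM (1151 to 1710) and the 28 IMQ barcodes had 3833 CPM (3129 to 4649), each from 103 immediate early UMIs. In IMQ the barcodes with some Malat1 were thus the higher, and in UT they were not. Of the 103 UMIs in IMQ, 51 came from 1 barcode with 1 Malat1 UMI, and without it IMQ stood at 2079 CPM.

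Shares of barcodes with a UMI were compared after thinning each barcode to 400 UMIs, since deeper barcodes show more genes. At that depth Jund had a UMI in 28.3% (25.8% to 31.0%) of 1210 Malat1-poor UT barcodes and 14.0% (12.2% to 16.0%) of 1357 IMQ barcodes, and Klf4 in 8.84% (7.30% to 10.6%) and 3.83% (2.87% to 4.99%). Unthinned, the shares were 43.5% and 23.3% for Jund and 15.2% and 6.78% for Klf4. Fos had a UMI in 3.72% (2.73% to 4.94%) and 3.91% (2.94% to 5.08%). Junb, with 2.56% and 2.14%, and Egr1, with 1.32% and 1.11%, had lower shares in each library. Shares of barcodes were not compared for all genes. By summed level 35.0% of all genes in this class were lower in IMQ by a fold of 2, with the median gene at -0.70. Thinning set all UMIs equal, Gm42418 included, which took 1.48% of Malat1-poor UMIs in UT and 15.2% in IMQ. In Malat1-rich barcodes thinned to the same depth, shares ran from 15.4% for Atf3 to 51.3% for Junb in UT, and from 9.09% for Atf3 and Zfp36 to 63.6% for Jund in IMQ. The IMQ shares rest on 11 barcodes, and their intervals are wide, that of Jund running from 30.8% to 89.1%.

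The genes were counted together in the same thinned barcodes. In the Malat1-rich class 29 of 39 UT barcodes, 74.4% (57.9% to 87.0%), and 10 of 11 IMQ barcodes, 90.9% (58.7% to 99.8%), had at least 2 of the 10 genes, and 28.2% and 36.4% had at least 5. In the Malat1-poor class the shares with at least 2 were 7.85% (6.40% to 9.51%) in UT and 4.79% (3.72% to 6.07%) in IMQ, and those with at least 5 were 0.744% and 0.221%. Leaving Jund and Klf4 aside, 2.40% of Malat1-poor UT and 2.21% of Malat1-poor IMQ barcodes had at least 2 of the other 8. Malat1-poor barcodes without any of the 10 were 60.4% (57.6% to 63.2%) in UT and 76.9% (74.5% to 79.1%) in IMQ.

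**Figure D5:**
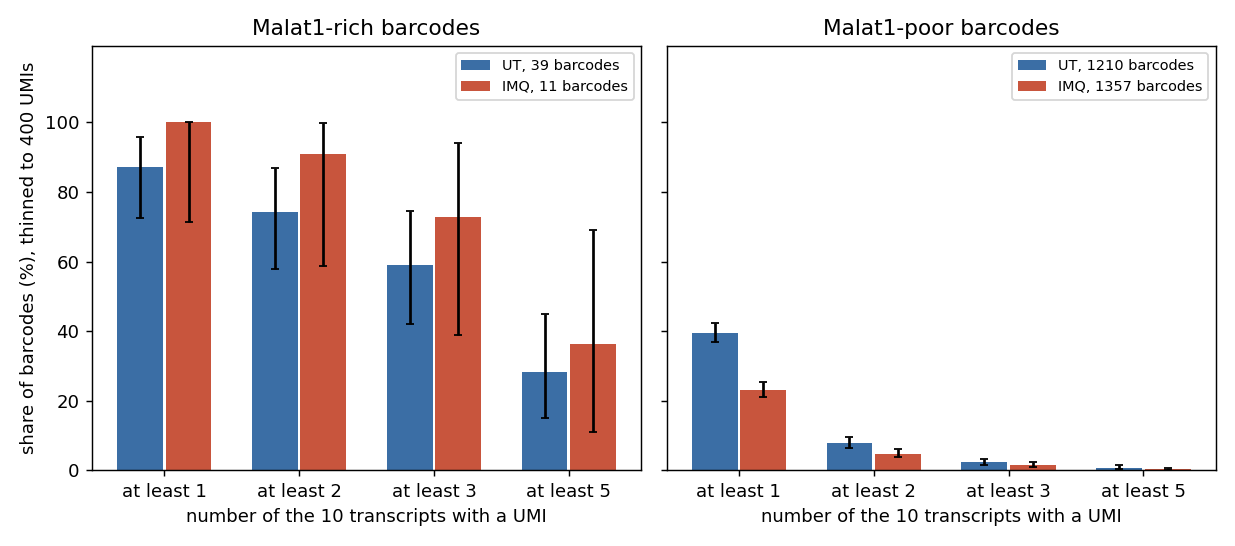
Share of barcodes (%, bars from 0, exact 95% binomial intervals) with at least 1, 2, 3 or 5 of the 10 genes after thinning to 400 UMIs, for Malat1-rich barcodes (left) and Malat1-poor barcodes (right). At least 2 genes were seen in 74.4% of UT and 90.9% of IMQ Malat1-rich barcodes, against 7.85% and 4.79% of Malat1-poor ones.

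Pairs of members were then counted in the same barcodes. For each of the 45 pairs the share of barcodes with 1 gene was compared between thinned barcodes with and without the other. It was higher with the other gene for 44 of 45 pairs in Malat1-poor UT barcodes and for 37 in Malat1-poor IMQ barcodes. The same count was not made for other pairs of genes. Fos, for example, had a UMI in 4 of the 16 UT barcodes with Egr1 and in 3.43% of the 1194 without, and Junb in 9 of the 16 with Atf3 and in 1.84% of those without. In IMQ, Junb had one in 11 of the 53 barcodes with Fos, 20.8% (10.8% to 34.1%), and in 1.38% of the 1304 without. In Malat1-rich UT barcodes 39 of 45 pairs went this way and in those of IMQ 22 of 45, where 11 barcodes leave little to compare. Malat1-poor barcodes with 3 or more of the genes, unthinned, numbered 66 in UT and 44 in IMQ and held 668 of the 1948 and 335 of the 989 UMIs, at a median depth of 1022.5 and 849.5 UMIs against 593 and 683 in barcodes with none.

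Members differed in how strongly they were concentrated in the Malat1-rich class. In UT the log2 ratio of the Malat1-rich over the Malat1-poor level ran from 1.76 (1.64 to 1.88) for Jund and 2.40 (2.18 to 2.61) for Klf4 through 4.12 for Zfp36 and 4.41 for Ier2 to 6.16 (5.82 to 6.52) for Jun and 6.73 (6.31 to 7.18) for Atf3. In IMQ Jund (3.08) and Klf4 (3.25) were again the lowest, and Fosb (6.09) and Atf3 (6.00) the highest. The median of all genes was 0.49 in UT and 0.95 in IMQ, and 36.2% of 8399 and 49.2% of 6221 genes were higher in the Malat1-rich class by a fold of 2 or more. For Jun in UT 0.881% of genes had a ratio as high and for Jund 19.0%. Without the top barcode of each library the UT ratios of Jun and Atf3 were 4.96 and 3.90, and Jund fell to 0.99. Of the Jund UMIs 50.1% in UT and 45.1% in IMQ came from Malat1-rich barcodes, and of the Klf4 UMIs 61.0% and 48.0%. For the other 8 genes the shares ran from 83.8% to 96.9% in UT and from 56.2% to 86.9% in IMQ.

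Other immediate early genes were read from a list of 41, of which 39 were in the files. Of 38 with at least 10 UMIs in the Malat1-rich class, 18 were higher in IMQ by a fold of 2 or more and 7 lower, against the backgrounds of 16.3% and 21.9% given above, and their median log2 ratio was 0.87. Cebpb, a leucine zipper factor of inflammation, had 531 CPM in UT and 4245 CPM in IMQ, with a log2 interval from 2.75 to 3.25. Pim1, a serine kinase, had 292 and 1953 CPM (2.74, 2.39 to 3.101), Ier5 had 73.0 and 733 CPM (3.33, 2.66 to 4.04), and Nr4a1, an orphan nuclear receptor, had 1153 and 2940 CPM (1.35, 1.13 to 1.57). Nfkbia, the inhibitor of NF-kB, was higher by less than the fold (0.76, 0.55 to 0.98). Without the top barcodes 20 of 36 were higher and 4 lower, against 12.7% and 25.3% of all genes, with a median of 1.16. Cebpb (2.42), Ier5 (2.49), Nr4a1 (2.01) and Pim1 (1.79) were among the higher. In Malat1-poor barcodes 4 of 28 were higher and 5 lower, against 4.06% and 35.0% of all genes, with a median of 0.06 where the median gene was at -0.70. There Cebpb had a log2 ratio of 0.06 (-0.25 to 0.37) and Nr4a1 one of -0.02 (-0.77 to 0.74).

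Lists of partners and regulators of the members were counted in the same way. Of all genes in the Malat1-rich class 16.3% were higher in IMQ by the fold and 21.9% lower, and without the top barcodes 12.7% and 25.3%. Of 11 other AP-1 subunits measured in Malat1-rich barcodes 2 were higher in IMQ and 2 lower, with a median of 0.07. Fosl2, a Fos relative, had 99.3 and 676 CPM (2.77, 2.16 to 3.40), Maf had 53 UMIs in UT and 4 in IMQ and Atf7 21 and 2, while Atf4 (0.73) and Maff (0.71) stayed within the fold. Among 19 genes of the ERK, JNK and p38 pathway, which carries the signals that induce the members, 4 were higher and 5 lower. Fgfr1 had 44 and 83 UMIs, Hras 74 and 1 and Mapk3 21 and 1. Among 6 genes of SRF and its cofactors 2 were higher, Crebbp (1.28, 0.56 to 1.99) and Elk3 on 6 and 7 UMIs, and none was lower, with Srf itself at 17 and 3 UMIs, Elk4 at 14 and 8 and Creb1 at 12 and 2. Without the top barcodes 2 of 10 AP-1 subunits were higher and 1 lower, with a median of 0.15, and Maf, on 21 and 3 UMIs (-0.88), was within the fold. There 2 of 16 kinase pathway genes were higher and 4 lower, and 2 of 4 SRF genes were higher and none lower.

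Lists downstream of the members followed, against the same shares of all genes, 16.3% higher and 21.9% lower, or 12.7% and 25.3% without the top barcodes. Of 9 feedback inhibitors 4 were higher and 3 lower. Zfp36l1, a relative of Zfp36, had 604 and 1324 CPM (1.13, 0.81 to 1.45), whereas Zfp36l2 had 248 and 113 CPM (-1.14, -2.15 to -0.26), and Dusp1, a phosphatase that switches off these kinases and is also on the immediate early list, had 966 and 1287 CPM (0.41, 0.12 to 0.70). Spred1 had 13 and 17 UMIs, Dusp10 3 and 7 and Spry2 23 and 1. Of 5 AP-1 target genes 4 were lower and none higher, with Mmp3 at 77 UMIs in UT and 0 in IMQ, Ccnd1 at 33 and 0, Vegfa at 27 and 3 and Spp1 at 23 and 1. The UT UMIs of Mmp3 came from 4 barcodes and those of Ccnd1 from 3. In the Malat1-poor class Mmp3 was higher in IMQ by less than the fold, on 359 and 472 UMIs (0.47, 0.27 to 0.67). Ccnd1 was lower there, on 125 and 24 UMIs (-2.31, -3.00 to -1.67). Both of the 2 measured targets of Zfp36, Cxcl1 and Ptgs2, were higher, on 11 and 29 and on 11 and 12 UMIs, and in the Malat1-poor class none of the 10 listed targets reached 10 UMIs. Among the barcodes other than the top ones, 2 of 7 feedback inhibitors were higher and 1 lower, with a median of -0.25, 3 of 4 AP-1 targets were lower and none higher, and the 1 Zfp36 target still measured was higher.

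Stress chaperones, which digestion and heat also raise, were read in the same barcodes. Of 11 measured in the Malat1-rich class 5 were lower in IMQ and none higher, against 21.9% and 16.3% of all genes, with a median of -0.50. Hspa1a, an inducible Hsp70, had 1836 CPM in UT and 310 CPM in IMQ (-2.57, -3.12 to -2.06), Hspa1b 1682 and 47.0 CPM (-5.16, -6.79 to -3.93) and Hspb1 3594 and 263 CPM (-3.77, -4.37 to -3.23). Hspa8 (0.83) and Hsp90ab1 (-0.50), which cells make without stress, stayed within the fold. Without the top barcodes 3 of 10 were lower and 3 higher, against 25.3% and 12.7% of all genes, with a median of 0.07. Hspb1 (-2.23) and Hspa1b (-4.14) were then among the lower and Hspa8 (1.20) among the higher. Of 4 measured nuclear-retained transcripts 2 were higher, Neat1 (2.48, 2.12 to 2.85) and Kcnq1ot1 (1.04, 0.26 to 1.81), and Meg3 was lower on 188 and 4 UMIs, with Malat1 itself, which set the classes, at 60520 CPM in UT and 60500 CPM in IMQ. Of the 4, 1 was higher and 1 lower without the top barcodes. In the Malat1-poor class these lists held 3 of 11 chaperones, 3 of 10 AP-1 subunits, 4 of 19 kinase pathway genes, 4 of 7 SRF genes, 3 of 7 AP-1 targets and 2 of 3 nuclear-retained transcripts lower and none higher, and 2 of 8 feedback inhibitors higher, against 35.0% and 4.06% of all genes.

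The 5 genes whose level followed the summed members most closely from barcode to barcode were not on the immediate early list. Over the thinned Malat1-rich barcodes, 39 in UT and 11 in IMQ, the highest mean Pearson correlations with the summed members among 256 genes were those of H2-D1 (0.47), Rps19 (0.46), Rps16 (0.41), Psma3 (0.40) and Rps23 (0.39), where the median gene had 0.03. H2-D1 had a UMI in 11 UT and 2 IMQ barcodes. These barcodes share a library and its base composition, the counts are sparse, and the correlations are weak, so they are given as a description.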

How the data were processed

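The libraries were made with the Chromium 3′ version 3 kit from sorted dermal cells, 1 per group. The authors deposited raw UMI counts per gene and barcode from Cell Ranger, without normalisation, by version 3.0.0 for UT and 3.1.0 for IMQ per the file headers, on mm10 per the labels, and the version and the group cannot be told apart. The study left out cells with fewer than 200 or more than 5000 genes or over 5% mitochondrial UMIs, and that filter is here an alternative. For IMQ the study counted more cells after filtering than the matrix has barcodes, so the matrix may differ from the one analysed there.

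The 10 genes, the gene lists and the Malat1 limit were chosen with earlier results of these data known. Counts were summed per library and class of barcodes and scaled to CPM without division by length, since the kit counts transcript ends. Intervals at 95% were exact Poisson for levels, Clopper-Pearson for shares and conditional binomial for ratios (scipy 1.17.1, numpy 2.4.6, Python 3.11.15), and a count of 0 was bounded by 3 counts. A gene was read against the fold of 2 when it had at least 10 UMIs over both libraries. For shares, barcodes were thinned to 400 UMIs, leaving out 102 UT and 58 IMQ Malat1-poor barcodes as shallower. A barcode was led by the marker list with the most UMIs, given at least 10 UMIs from at least 3 genes. Of each list the 3 genes with the most UMIs and the 3 with the largest ratios were named, except 1 gene that is not reported here, and of all genes the 5 whose level followed the summed members most closely. The barcodes with the highest Scrublet scores (scanpy 1.11.5), a share fixed at 0.8% per 1000 barcodes, were 15 in UT and 16 in IMQ. They stayed in except in 1 alternative, whereas the study used DoubletFinder. TMM factors came from edgeR 4.0.16 under R 4.3.3, with no edgeR test. Other Malat1 limits, gene minimums, mitochondrial limits, scalings and weightings of barcodes were tried as alternatives. The scripts were tested on simulated data. Of 31053 gene identifiers 30934 were found in GENCODE M21.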

Additional observations from a re-analysis of the deposited data

How the results depend on the processing

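With 1 library per group no replicate could be left out. No paired analysis was possible because each group had 1 library and no replicate numbers to pair. Leaving out the keratinocyte-led barcodes and leaving out single barcodes with the most UMIs of a gene or of the members above 5% mitochondrial were chosen after seeing the data, and all values below are log2 ratios of IMQ over UT unless given in percent. For the summed genes in Malat1-rich barcodes the ratio turned from -0.84 to 0.18 with the filter of the study, 0.22 without the top barcode of each library and 0.33 without keratinocyte-led barcodes, and was -0.066 as a mean of barcode CPM, -0.998 with TMM and -0.94 with median of ratios. In Malat1-poor barcodes it turned from -0.90 to 0.18 with a minimum of 500 genes, and was -1.23 over all deposited barcodes, -0.44 with the filter of the study, -0.56 when UMIs of Gm42418, AY036118 and the mitochondrial and ribosomal protein genes were kept out of the CPM, and -0.28 with TMM and with median of ratios. Over all barcodes with 200 or more genes it was -1.82, and then -0.38 with 500 genes, -2.48 over all deposited barcodes, -0.62 with the filter of the study, -1.57 with at most 10% mitochondrial UMIs, -1.50 with those transcripts kept out, -1.19 with TMM, -1.16 with median of ratios, -1.12 without the top barcodes, -0.98 as a mean of barcode CPM and -0.44 without keratinocyte-led barcodes.

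The share of the UMIs of the 10 genes held by Malat1-rich UT barcodes, 83.8%, became 90.2% with 500 genes, 65.5% with the filter of the study, 60.6% without the top barcodes and 52.1% without keratinocyte-led barcodes. In IMQ 63.8% became 88.8% with 500 genes, 52.3% over all deposited barcodes, 57.2% with the filter of the study, 69.5% with at most 10% mitochondrial UMIs and 48.2% without the top barcodes. Malat1 limits of 5 or 20 UMIs or of 1% of UMIs and leaving out the top Scrublet scores kept these ratios and shares within their counting intervals.

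Single genes turned as follows. In Malat1-rich barcodes Fosb became 1.02 with the filter of the study, 1.14 without the top barcodes, 0.42 as a mean of barcode CPM and 1.00 without keratinocyte-led barcodes, where Egr1 became 0.38 and Atf3 0.95, and Junb became -0.00094 with TMM. Without the barcode with the most UMIs of the gene in UT, Fosb became 0.64 and Egr1 0.13 in this class and Fos 0.19 among fibroblast-led barcodes. Without that of both libraries Fosb became 0.29, while Egr1 stayed negative at -0.098 and Fos at -0.80 among fibroblast-led barcodes. Without that of IMQ Atf3 became -0.32 among fibroblast-led barcodes. Jund changed sign with TMM (-0.097) and median of ratios (-0.038), and Klf4 as a mean of barcode CPM (0.60) and without keratinocyte-led barcodes (0.38). In Malat1-poor barcodes Fosb became 0.69 with 500 genes and 0.24 with the filter of the study, and Atf3 0.33 with 500 genes. There 500 genes also gave 1.43 for Fos, 1.04 for Jun, 0.98 for Egr1, 1.50 for Ier2 and 0.71 for Zfp36, the filter of the study gave 0.36 for Fos, 0.81 for Jun, 0.48 for Egr1, 0.28 for Ier2 and 0.62 for Zfp36, TMM and median of ratios gave 0.44 for Fos, 0.20 for Jun, 0.38 and 0.39 for Ier2, 0.24 and 0.25 for Egr1 and 0.074 and 0.079 for Zfp36, keeping the transcripts named above out of the CPM gave 0.16 for Fos and 0.11 for Ier2, and Junb became -0.20 over all deposited barcodes and -0.0079 without the top Scrublet scores. Over all barcodes with 200 or more genes, 500 genes gave 0.15 for Fosb, 0.66 for Junb, 0.10 for Jund, 0.12 for Egr1 and 0.81 for Ier2, the filter of the study gave 0.068 for Fosb, 0.69 for Junb and 0.055 for Ier2, and leaving out keratinocyte-led barcodes gave 0.26 for Fosb, 0.46 for Junb and 0.37 for Ier2. Of 150 single-gene values each under the alternatives other than leaving out the barcode with the most UMIs of a gene, 11 in Malat1-rich and 27 in Malat1-poor barcodes changed sign, 114 and 108 kept it within their counting interval, and 25 and 15 kept it past that interval. The causes of these changes were not tested. Depth limits the single genes, since 8 of the 10 had at most 153 UMIs in Malat1-poor UT barcodes and the IMQ side of the Malat1-rich class rests on 11 barcodes.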
